A study of Homo sapiens with 18 samples.

Results

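V-K562 cells are the controls in a study of the corepressor BASP1. They are K562 cells of the control condition, set against B-K562 cells that express wild type BASP1 and G-K562 cells that express BASP1-G2A, a mutant that cannot be myristoylated. All 3 groups are lines of K562, an established human cell line from a chronic myelogenous leukemia. Per the study's methods the derived lines are stably transfected pools, not single clones, kept in the selection drug G-418, and cells for ATAC-seq were treated with DNase before harvest. Each line was grown as 3 culture replicates for RNA-seq and 3 for ATAC-seq. The account below is of the 6 V-K562 libraries out of 18. Each gene's RNA value was set beside the ATAC-seq intervals of the 3 V-K562 libraries that had any base within 1 kb of the gene start, taken as the outermost exon end on the 5′ side. A start could be placed on 1 chromosome and strand for 28257 of 28395 genes, and the 3 libraries held 164825 of the 457967 intervals of the series.

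K562 cells carry the BCR-ABL1 fusion kinase, made when parts of chromosomes 22 and 9 were joined, and resemble early erythroid cells that make embryonic and fetal rather than adult globins. The erythroid programme is driven by the factors GATA1, TAL1 and KLF1, and its products are globin chains, the enzymes that build heme and the proteins of the red cell membrane. ATAC-seq uses a transposase that inserts into DNA not covered by nucleosomes. The start of an active gene is typically such a site, and the pileup at an interval's summit counts the tags stacked at its highest point.

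The 6 promoters below carry contrasts described in what follows. They are shown as the 250 bases that precede a RefSeq start on GRCh38, read 5′ to 3′ on the gene's strand, with every match on either strand to a searched motif in capitals. These motifs were the CCAAT box, the GC box GGGCGG, the ETS core CCGGAAG, the E-box CACGTG, the NRF1 core GCGCATGC, the TATA box TATAAA and, for GATA factors, AGATAA as well as TGATAA. Among genes with a placed start, RPS18 and FTL had the highest RNA levels, and their starts were open. The start of GATA1 had no interval. TUBA1C has a distal start with no interval and an inner start that had an interval. PRAME was highly expressed and lay under a pileup among the 10 highest.
RPS18, chr6:33271825-33272074, + strand: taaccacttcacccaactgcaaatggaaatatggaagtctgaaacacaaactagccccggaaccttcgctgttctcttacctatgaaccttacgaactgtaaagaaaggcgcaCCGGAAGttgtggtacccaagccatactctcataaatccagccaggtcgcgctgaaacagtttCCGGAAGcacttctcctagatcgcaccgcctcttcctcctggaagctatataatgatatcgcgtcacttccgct
FTL, chr19:48965059-48965308, + strand: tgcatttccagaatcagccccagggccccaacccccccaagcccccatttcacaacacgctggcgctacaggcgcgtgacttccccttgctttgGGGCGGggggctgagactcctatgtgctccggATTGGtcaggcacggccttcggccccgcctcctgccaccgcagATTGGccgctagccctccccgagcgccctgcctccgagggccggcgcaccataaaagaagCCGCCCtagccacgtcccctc
GATA1, chrX:48786340-48786589, + strand: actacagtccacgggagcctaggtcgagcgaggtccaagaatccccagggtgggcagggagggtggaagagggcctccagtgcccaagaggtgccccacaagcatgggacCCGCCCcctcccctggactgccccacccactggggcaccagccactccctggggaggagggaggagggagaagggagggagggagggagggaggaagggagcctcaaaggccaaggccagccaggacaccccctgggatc
TUBA1C, distal start, chr12:49227676-49227925, + strand: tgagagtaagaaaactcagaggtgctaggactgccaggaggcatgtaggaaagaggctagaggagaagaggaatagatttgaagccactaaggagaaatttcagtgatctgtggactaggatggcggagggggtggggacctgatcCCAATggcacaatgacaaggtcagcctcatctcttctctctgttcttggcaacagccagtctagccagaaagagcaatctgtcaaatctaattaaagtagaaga
TUBA1C, inner start, chr12:49264832-49265081, + strand: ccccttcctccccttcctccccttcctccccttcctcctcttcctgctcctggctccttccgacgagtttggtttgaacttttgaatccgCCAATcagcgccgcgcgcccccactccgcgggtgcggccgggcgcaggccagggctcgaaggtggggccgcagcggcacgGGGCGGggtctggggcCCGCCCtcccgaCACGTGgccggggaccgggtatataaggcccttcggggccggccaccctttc
PRAME, chr22:22559266-22559515, − strand: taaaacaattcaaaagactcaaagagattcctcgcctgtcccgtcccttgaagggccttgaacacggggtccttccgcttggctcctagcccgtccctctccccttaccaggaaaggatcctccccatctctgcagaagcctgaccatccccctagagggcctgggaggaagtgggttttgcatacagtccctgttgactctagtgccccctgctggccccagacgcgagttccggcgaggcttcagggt

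The RPS18 promoter held CCGGAAG, the core of sites for ETS-family factors, at both −137 and −74 from the start. FTL held 2 CCAAT boxes and 2 GGGCGG boxes, the core of sites for the SP family. The inner TUBA1C start held 24 CpG dinucleotides in 250 bases and the distal one 1. GATA1 held 4 CpG and a single GGGCGG match, and PRAME held 9 CpG and none of the motifs. These matches are descriptions of letters and are not shown to be bound.

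The RNA-seq values summed to between 32074895 and 32728634 per V-K562 library, and the ATAC-seq libraries, which the authors sampled to the same number of tags, held 53862 to 55570 intervals with a median summit pileup of 41 in each. Over the 11370 expressed genes averaging 100 or more, the median CV across the 3 RNA-seq libraries was 5.96%. The CV of the summit pileup had a median of 11.3% over the 10746 expressed starts with an interval in all 3 libraries. No minimum was set on the pileup there, so the CVs of the assays are over unlike sets. The RNA-seq library of replicate 1 stood apart in a small set of genes. It had 27 genes that read 10 or more there and 0 in replicates 2 and 3, against 0 such genes for replicate 2 and 1 for replicate 3. Among them were the epithelial keratins KRT7 and KRT6A and the chemokine CXCL5. KRT5, a keratin of basal epithelium, read 143 in replicate 1 and 0 in the other 2 libraries. KRT17, another epithelial keratin, read 596, 39 and 26 in replicates 1, 2 and 3. MPO, the peroxidase of neutrophil granules, read 76, 2 and 1. In each of these genes replicate 1 was high alone. Other epithelial keratins were mixed. KRT13 read 28, 6 and 4 and KRT14 read 2, 0 and 0, again highest in replicate 1. Further keratins did not set replicate 1 apart. KRT8 read 17065, 17119 and 15828, KRT18 13466, 14300 and 14020, KRT19 5214, 5141 and 5198, and KRT15 64, 76 and 65.

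A smaller difference of this kind lay on chromosome 9. K562 is known to lack both copies of CDKN2A, the gene of the cell-cycle inhibitor p16. No V-K562 library had an interval between positions 20692851 and 23932450 of chromosome 9, a stretch of 3.24 Mb that holds CDKN2A and 30 other genes, the type I interferon cluster among them. By length this stretch ranked 48 among 164786 gaps between V-K562 intervals. All 31 genes were at 0 in replicates 2 and 3. Replicate 1 summed to 31 over them, with CDKN2A at 14, its neighbor CDKN2B at 7 and KLHL9, chosen after its value was seen, at 5. The source of this RNA was not tested. Leaving replicate 1 out of both assays moved the share of expressed genes with a start interval from 74.4% to 75.6%. The rank correlation described below moved from 0.27 to 0.28. Without replicate 2 or 3 instead, the shares were 74.6% and 74.8%, and the correlation was 0.28 in each case. H19, an imprinted RNA of fetal tissue, read 1131, 324 and 288, and MIR17HG, the host of an oncogenic microRNA cluster, read 2036, 1228 and 883. Both were again highest in replicate 1 and were also present in the other libraries. IFI27, an interferon-induced gene, read 243, 98 and 94, and PLAT, tissue plasminogen activator, 218, 95 and 108. Of the 9 genes averaging 100 or more that differed by over 2-fold between libraries, 8 were highest in replicate 1.

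To compare genes with each other, values were divided by merged exon length and scaled so that all genes of a library summed to 1000000. This scaled value is the level, given as mean ± SD over 3 libraries. Genes of the mitochondrial chromosome took 17.6% to 20.5% of the summed level and have no start in the scheme used. Of the others, the 20 genes with the highest levels took 10.6% to 11.0% and were dominated by the translation machinery, since 15 encode ribosomal proteins. RPS18 was highest, with a level of 11452 ± 636 (SD, n = 3) and summit pileups of 160, 157 and 144 in replicates 1 to 3. FTL, the light chain of the iron store ferritin, followed with a level of 9911 ± 151 and pileups of 189, 209 and 191. EEF1A1 and EEF2, the elongation factors that deliver tRNA and move the ribosome, had levels of 3790 ± 107 and 4334 ± 292. Their starts looked unlike each other, because EEF1A1 had pileups of 157, 150 and 162 and EEF2 had none in replicate 1 and only 48 and 62 in the others. In all, 18 of the 20 had an interval in every library, with mean pileups from 56 to 314. The other two were EEF2 and the fetal globin gene HBG2.

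As a whole the cytosolic ribosomal proteins took 18.4% to 19.7% of the summed level. Of 86 genes with such symbols, 82 were expressed, meaning a value of at least 10 in all 3 libraries, and 80 had an interval at the start in all 3. The median pileup over those 80 was 119, against 95.7 over the 10746 expressed genes with 3 intervals. Within the list the Spearman correlation of pileup with level was 0.05 across the 80 genes. RPL18 had the highest pileups, 319, 326 and 347, at a level of 2136 ± 127. RPL4 had the higher level, 4447 ± 72.7, and pileups of only 66, 48 and 54. Both encode proteins of the large ribosomal subunit, as does RPL26L1, a paralog with a level of 28.0 that was the 1 expressed member with no interval. Pseudogenes of these genes are many and only uniquely mapped reads were kept, so single levels are uncertain.

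Glycolysis was expressed in full. All 15 listed genes passed, with a median level of 390, and 13 had an interval in all 3 libraries. GAPDH had a level of 3334 ± 187 and pileups of 77, 86 and 82, and ALDOA, the aldolase, a level of 2275 ± 167 and pileups of 52, 61 and 74. Both lay below the median pileup of expressed genes, although their levels ranked 24 and 49, and at the most open of 3 RefSeq starts ALDOA had 129, 177 and 186. HK1, the first enzyme of the pathway, had an interval only in replicate 2 at the outermost start, with a pileup of 17, and 222, 214 and 193 at the most open of its 7 RefSeq starts. Of the 9 housekeeping genes, 8 had an interval in every library, from GAPDH to TBP, the TATA-binding protein, whose level of 41.5 ± 1.88 came with pileups of 269, 256 and 291. HPRT1, a purine salvage enzyme on the X chromosome, had none at its outermost start and 40, 56 and 59 at its RefSeq start.

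The globins read as embryonic and fetal. HBG2, a fetal gamma chain, read 37150, 41363 and 34612 in the 3 libraries, a level of 4166 ± 392. HBE1, the embryonic epsilon chain, read 48550, 46053 and 40294, a level of 3020 ± 291. HBG1, the other gamma chain, read 9830, 8528 and 7350, a level of 945 ± 138. The 3 genes did not overlap in level. The alpha-type chains were far lower, with HBZ, the embryonic zeta chain, at 106 ± 21.5 and HBA2 at 106 ± 15.7. The adult beta chain HBB read 7, 7 and 8, under the minimum for an expressed gene, and HBD, the minor adult delta chain, read 99, 106 and 100. The order of HBZ and HBA2 is not resolved, as they overlap. HBG1 and HBG2, and HBA1 and HBA2, are near-identical pairs whose unique reads may be split unevenly, so that the 4.45 ± 0.583-fold excess of HBG2 over HBG1 is uncertain. Every one of HBG1, HBG2, HBE1, HBZ and HBA1 was lowest in replicate 3.

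Judged by outermost starts, the tallest globin interval was at HBE1, whereas HBG2, with the highest level, had none within 1 kb. Of the 8 expressed globins, 3 had an interval within 1 kb of the start in all libraries and 4, namely HBG1, HBG2, HBA1 and HBA2, had none in any. The nearest V-K562 summit lay 3907 bp upstream of HBG2, and 6665 bp downstream of the start of HBG1. HBD, with a level of only 8.46, had pileups of 74, 52 and 34 at its start. The HBE1 interval had pileups of 193, 224 and 180. Its summit lay 1177, 1241 and 1145 bp downstream of the outermost start and only its edge reached the window. The next interval downstream had pileups of 146, 137 and 107. Which HBE1 start is in use was not tested, so the HBE1 interval is not shown to mark its promoter. Upstream of the outermost HBE1 start, 2 intervals stood in each library. They lay at 6343, 6311 and 6343 bp with pileups of 112, 113 and 95 and at 9447, 9479 and 9447 bp with pileups of 49, 49 and 40. Which of the intervals around HBE1 belong to the locus control region was not tested. At the alpha cluster, HBQ1, a theta chain, had pileups of 53, 73 and 57 at a level of 39.2 ± 6.22.

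**Figure D1:**
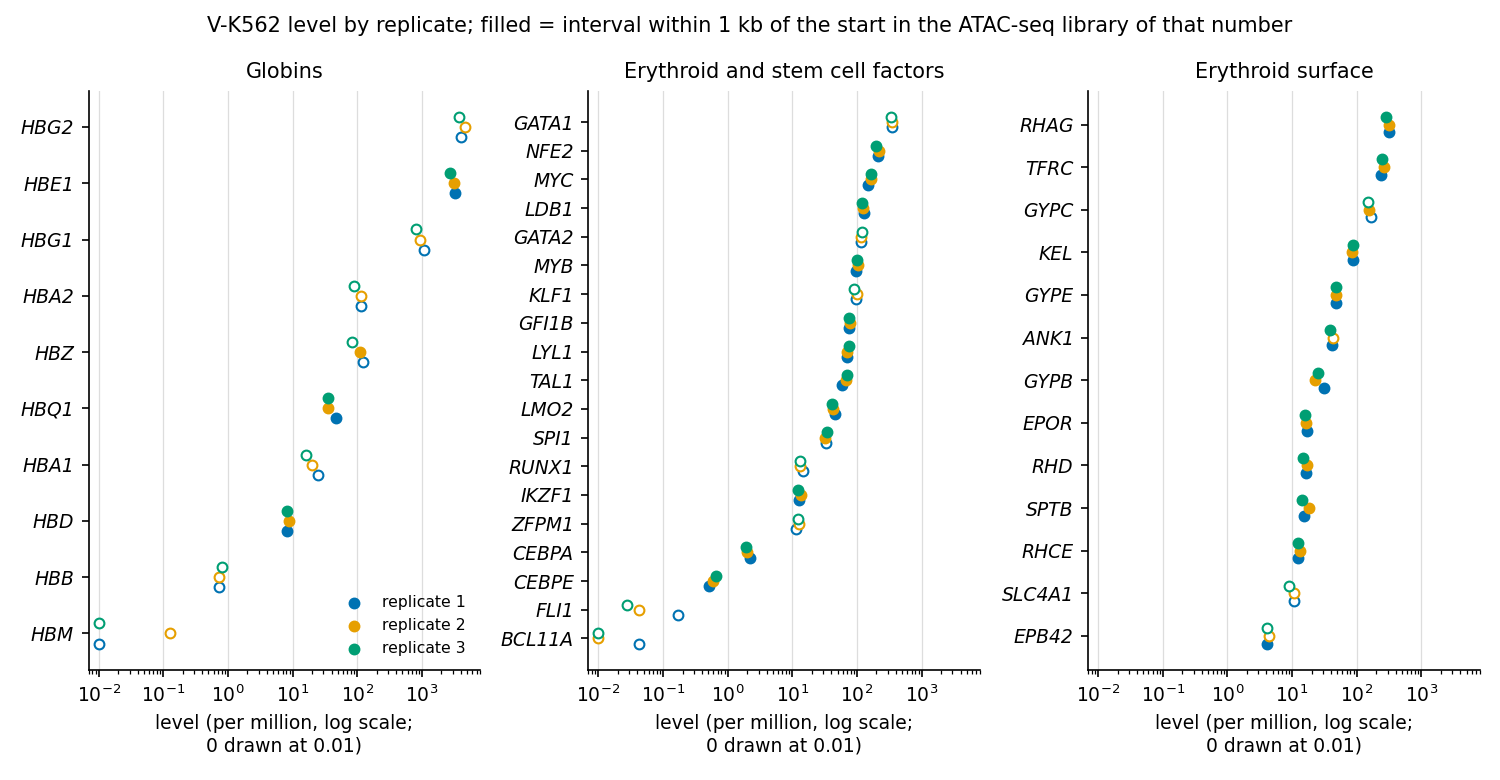
Level (log axis, values of 0 drawn at 0.01) of the globins, the erythroid and stem cell factors and 13 erythroid surface genes in V-K562, 1 point per RNA-seq replicate. A filled point marks an interval within 1 kb of the start in the ATAC-seq library of the same number, and the highest members of 2 panels, HBG2 and GATA1, are open points in all 3.

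All 9 heme synthesis genes were expressed and 7 had an interval in all 3 libraries. UROD, the decarboxylase of the pathway's middle steps, had the highest level, 536 ± 75.7, with pileups of 183, 233 and 232. ALAS2, the erythroid form of the first and rate-limiting enzyme, had a level of 101 ± 4.56 and no interval in any library, the nearest summit being 2808 bp downstream. Its ubiquitous counterpart ALAS1 had the lower level, 39.2 ± 0.867, and pileups of 72, 55 and 75. The highest pileups of the list, 366, 338 and 333, were at PPOX, at a level of 36.6 ± 1.02. Within this pathway the tallest interval was not at the most abundant RNA.

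The erythroid surface genes were expressed without exception, 15 of 15. RHAG, the Rh-associated glycoprotein, had the highest level, 306 ± 20.1, with pileups of 80, 54 and 89. TFRC, the transferrin receptor through which iron enters, had a level of 250 ± 15.1 and pileups of 123, 100 and 162. The median pileup over the 10 members with 3 intervals was 76.8, below the 95.7 of expressed genes. ANK1, GYPC and EPB42, of the membrane skeleton and its anchors, had intervals in only 1 or 2 libraries, with pileups from 20 to 37, below the median of 41 over all intervals. SLC4A1, the band 3 anion exchanger, had none. GYPB and GYPE, and RHD and RHCE, are paralogs whose reads may be shared unevenly.

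Among 19 erythroid and stem cell factors, 17 were expressed. GATA1 was highest, reading 8083, 8070 and 8033, a level of 344 ± 2.15. MYC, the proliferation factor, had a level of 160 ± 12.0 and pileups of 123, 102 and 111. NFE2, which binds globin control regions, had a level of 211 ± 10.9 and pileups of 122, 112 and 113. TAL1 had a level of 65.3 ± 5.47 and pileups of 189, 194 and 260, the highest of the list. MYB, a factor of blood progenitors, had a level of 99.9 ± 4.03 but pileups of only 56, 50 and 47. BCL11A, the repressor of fetal globin genes, read 5, 1 and 0, and FLI1, a megakaryocyte factor, 12, 3 and 2. Neither had a start interval. Thus the list held 11 expressed members with an interval in all 3 libraries, 5 with none and SPI1 with 2.

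The 5 expressed factors with no interval at the outermost start were GATA1, GATA2, KLF1, RUNX1 and ZFPM1. For 3 of them the RefSeq starts gave another reading. GATA2 had pileups of 76, 80 and 88 at the more open of its 2 RefSeq starts, RUNX1 had 147, 151 and 179 at its start there, and ZFPM1 had 151, 167 and 135. GATA1 and KLF1 had none at the RefSeq start either, and their nearest summits lay 3520 bp upstream and 1955 bp downstream. The promoter of GATA1 printed above thus belongs to a gene whose level ranked 301 of all placed genes and at whose start no V-K562 library listed an interval.

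The marker check put V-K562 on the erythroid side. All 12 erythroid markers were expressed. HBE1, HBG2 and TFRC gave most of their sum. Their summed value was 134560 to 150847 per library, against 4231 to 4558 for 5 megakaryocyte, 4308 to 4540 for 7 myeloid and 550 to 692 for 7 lymphoid markers. ITGA2B, the integrin of platelets and their precursors, gave nearly all of the megakaryocyte sum with a level of 83.8 ± 3.07, while PF4 read 0, 0 and 1. LYZ, SPI1 and CD33 gave most of the myeloid sum, and MPO, ELANE and CSF1R were each under 10 in replicates 2 and 3. Of the 4 epithelial markers only EPCAM passed, at 57.6 ± 6.05, and of 3 endothelial markers only PECAM1, at 4.03 ± 0.269. Of 4 fibroblast markers 3 passed, with COL1A1, a collagen chain, highest at 11.7 ± 1.95 and pileups of 53, 59 and 60. Of 7 lymphoid markers 3 passed, and CD3D, a chain of the T cell receptor complex, gave most of their sum with 561, 470 and 400. The hepatocyte, neuron and muscle markers summed to at most 94 in any library, and SYT1 and ACTA1 were the only 2 of these 7 that passed. What part of such RNA comes from other cells was not tested. MS4A1 and CDH5 were at 0 in all 3.

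Of 13 leukemia genes, 11 were expressed, all but CDKN2A and CDKN2B. PIM1, a survival kinase downstream of STAT5, had the highest level, 618 ± 56.1, with pileups of 129, 152 and 112. CRKL, an adaptor that binds BCR-ABL1, had a level of 296 ± 35.5 and pileups of 634, 663 and 614. BCR, whose promoter drives the fusion, had a level of 36.1 ± 2.72 and pileups of 207, 369 and 375. ABL1 had a level of 91.4 ± 9.94 and pileups of 180, 208 and 219, with the summit 1145 bp upstream of the outermost start. At its RefSeq start only replicate 3 had an interval, with a pileup of 38. Reads of the fusion RNA count toward both genes and cannot be told from those of the normal copies here. STAT5A, with a level of 171 ± 17.1, had no interval at its outermost start and 49, 39 and 46 at the most open of its 3 RefSeq starts.

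Of 15 oncofetal and testis genes, 14 were found and 11 expressed, 5 with an interval in every library and 6 with none. PRAME, a melanoma and leukemia antigen, read 71144, 70181 and 67810, a level of 1196 ± 32.3 that ranked it 90 among all placed genes. SSX1, a testis antigen on the X chromosome, had a level of 206 ± 4.49 and pileups of 51, 61 and 87. MAGEA1, another, had a level of 83.5 ± 7.85 with no summit closer than 14324 bp. The 3 IGF2BP genes, fetal RNA-binding proteins, had levels of 37.8 to 49.2 and an interval in every library, whereas LIN28B, which blocks let-7 maturation, had a level of 15.8 ± 2.28 and none at its outermost start. BASP1 itself read 7, 5 and 7, had no start interval and no summit within 13335 bp. Its partner WT1 had a level of 23.1 ± 1.38 with pileups of 51, 77 and 73, and NMT1 and NMT2, the enzymes that attach myristate, had levels of 77.3 ± 1.37 and 13.9 ± 1.16.

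Across all genes the presence of an interval followed the expression class. Of 7101 genes at 0 in all 3 RNA-seq libraries, 8.28% had an interval in all 3 ATAC-seq libraries. This share was 3.60% for protein-coding genes alone, an alternative added after seeing the data, and 5.51% without starts within 1 kb of another. Over all gene types it was 18.4% for means under 10, 40.5% from 10 to 100, 75.6% from 100 to 1000, 89.0% from 1000 to 10000 and 95.0% for the 462 genes at 10000 and over. Over the 14452 expressed genes it was 74.4%, with 19.7% having none in any library and 865 genes having 1 or 2. The 3 libraries were alike, giving 76.5%, 78.0% and 77.8% of expressed genes with an interval when taken singly. In deciles of level, the share was 36.5% in the lowest, 75.2% in decile 4 and 92.7% in the highest.

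The height of the interval varied over a smaller range. The median of the mean summit pileup was 71.8 for genes at 0 that had an interval in all libraries, 86.3 for means of 100 to 1000 and 130 at 10000 and over. In deciles of level it was 56.7, 88.3 and 123 in deciles 1, 5 and 10. The quartiles overlapped widely, with 36.6 to 100 in decile 1 and 81.7 to 183 in decile 10. Over the 10746 expressed genes with 3 intervals the Spearman correlation of mean pileup with level was 0.27. It was between 0.28 and 0.29 in each ATAC-seq library and in same-numbered libraries of both assays. Genes are not independent replicates, and level and pileup each come from 3 libraries of 1 line, so these are descriptions with no p-value.

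**Figure D2:**
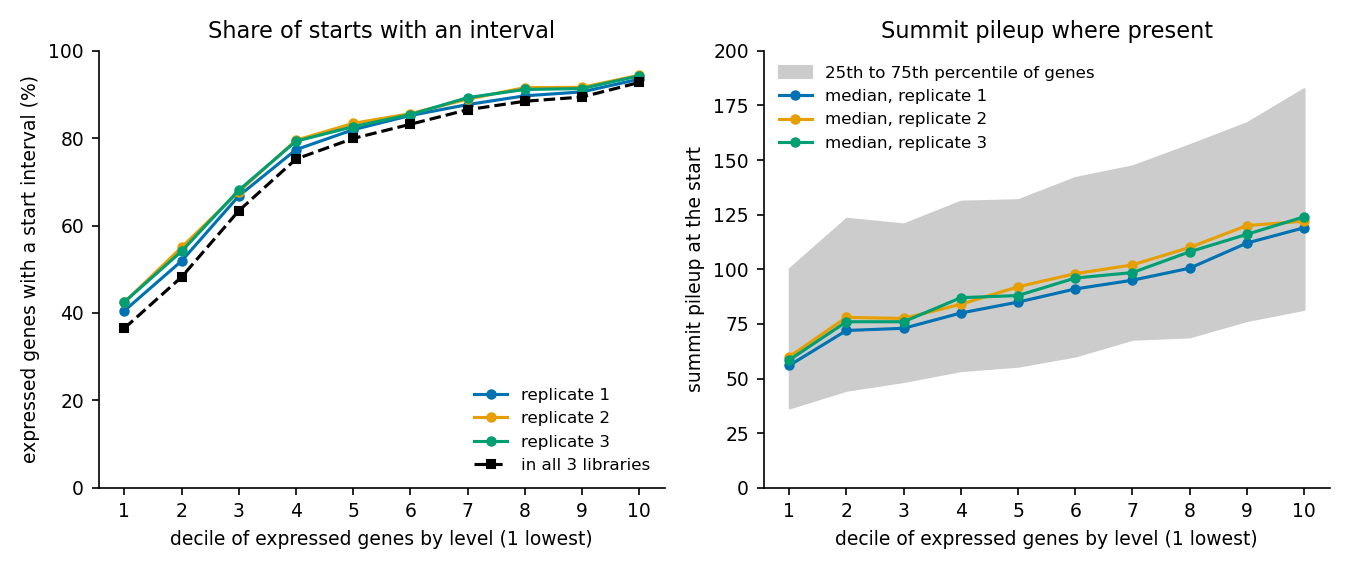
Expressed V-K562 genes in deciles of level. The left panel gives the percentage with a start interval in each ATAC-seq library and in all 3, which ran from 36.5% to 92.7% for all 3, and the right panel the median summit pileup per library with the interquartile range of the mean over genes in grey, whose medians ran from 56.7 to 123.

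Read the other way, the median level was 8.74 in the lowest quintile of expressed genes by pileup and 29.7 in the highest quintile, where the quartiles ran from 10.3 to 74.7. When genes lacking an interval in at least 1 library were ranked lowest and all 28257 genes were used, the correlation was 0.66. Pileup and exon length correlated at −0.07, and the correlation of pileup with values not divided by length was 0.25.

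**Figure D3:**
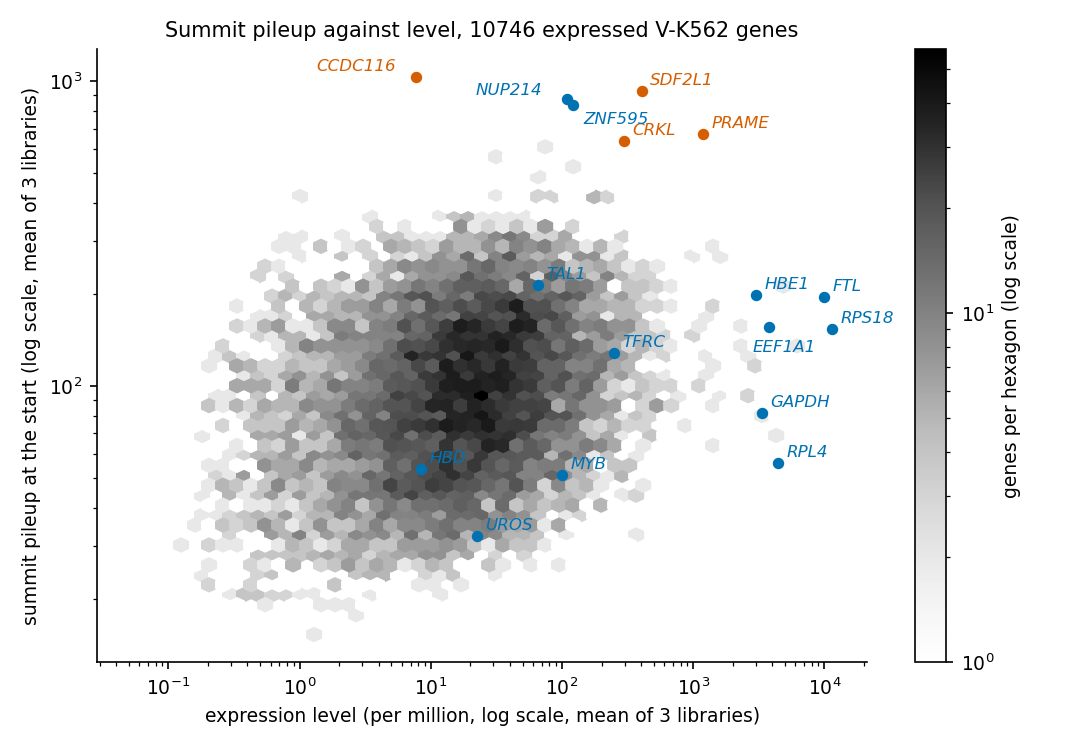
Mean summit pileup at the start against mean level, both on log axes, for 10746 expressed V-K562 genes with an interval in all 3 libraries, shaded by the number of genes per hexagon. Labelled genes on chromosome 22 are orange and the others blue: CCDC116 lies at the top left with a level of 7.72 and a pileup of 1032, and RPL4 at the lower right with a level of 4447.

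At the starts of expressed genes that had an interval, the highest summit lay within 100 bp of the start in 48.8% and within 250 bp in 74.5%, with a median position of −18 bp and quartiles of −111 and 90 bp. For genes at 0 these shares were 26.8% and 46.0%, and the quartiles −386 and 206 bp. Intervals at expressed starts were 551 bp long at the median and at starts of genes at 0, 400 bp. Per library, a single interval lay at 86.5% of the expressed starts that had any, and 2 lay at 12.9%. The median pileup was 95 with the summit within 100 bp of the start, 97 from there to 250 bp, 87 to 500 bp and 79 beyond 500 bp.

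**Figure D4:**
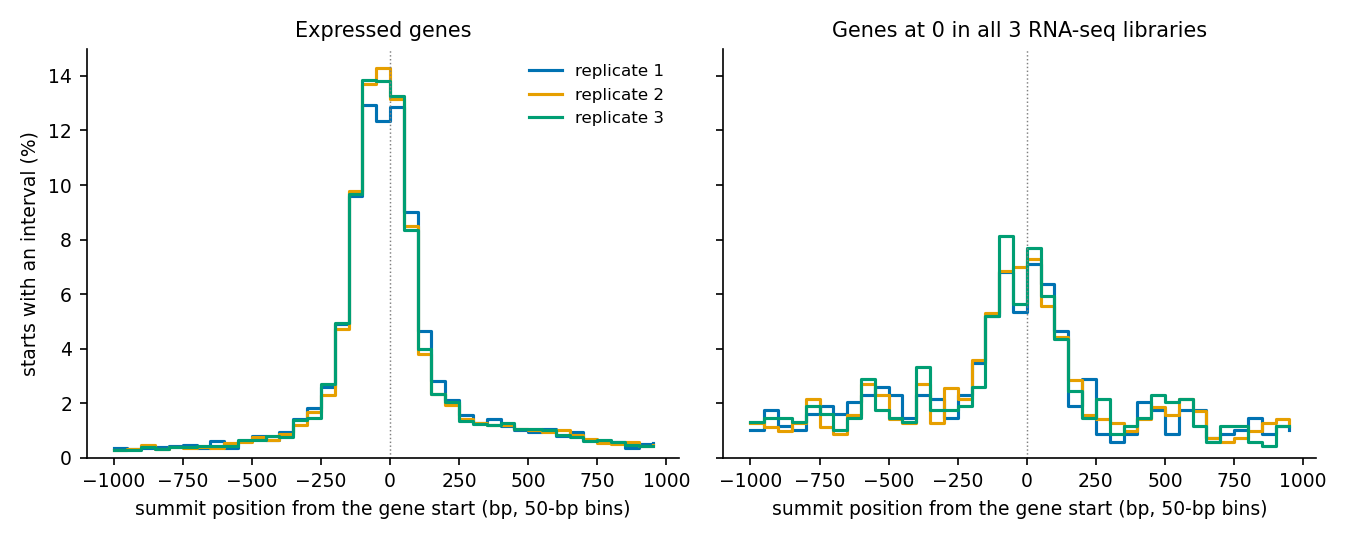
Position of the highest summit from the gene start in 50-bp bins, as a percentage of starts with an interval, 1 line per V-K562 ATAC-seq replicate. Expressed genes peak at the start with 48.8% within 100 bp, and genes at 0 in all RNA-seq libraries are more spread with 26.8%, while summits beyond 1000 bp of intervals whose edge reached the window are not drawn.

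A start shared with a neighbor was more often open. Of 3443 expressed genes with a start of the opposite strand within 1 kb, 93.0% had an interval in all 3 libraries and the median pileup was 110. Of the 10709 with no other start so close, 68.5% had one, with a median of 89.3. The median levels were 16.4 and 11.8. The correlation of pileup with level was 0.32 when only genes without a close neighbor were kept. Protein-coding genes alone gave 0.28.

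The 2841 expressed genes with no interval within 1 kb in any library had a median level of 2.35, against 12.9 for all expressed genes. For 1306 of them, or 46.0%, some V-K562 summit lay within 5 kb. The outermost exon end is not always the start in use. Of the 1850 that could be matched to a RefSeq start, 543 had an interval in all 3 libraries at one of these. TUBA1C, an alpha-tubulin with a level of 551 ± 14.3, is the clearest case. Its outermost start had no interval, while the inner start printed above, 37156 bp downstream, had pileups of 83, 91 and 93. SET, a histone chaperone with a level of 433 ± 18.1, had none at its outermost start and 135, 185 and 158 at a RefSeq start 5790 bp downstream. Over the 11198 expressed genes with RefSeq starts, 78.0% had an interval in all libraries at the outermost start and 82.5% at any RefSeq start. The gain was greatest for genes with 3 or more RefSeq starts, at 66.7% against 84.6%, and small for those with 1, at 80.0% against 81.6%. Genes with more RefSeq starts also had more windows in which an interval could be found. What part of the gain comes from that was not tested.

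Other genes with high RNA had no interval at either start. ANXA1, a phospholipid-binding regulator of inflammation, had a level of 407 ± 37.6, and its nearest summit was 2253 bp downstream. CKB, the brain creatine kinase, had 390.5 ± 16.8 and a summit 1547 bp downstream. SLC6A8, the creatine transporter on the X chromosome, had 355 ± 22.3 and a summit 1447 bp downstream. In these 3 and GATA1 a site was present nearby, but beyond 1 kb. Others among the 10 highest levels with no interval were HBG2, HBG1 and the microRNA gene MIR5047, whose level of 348 ± 25.8 came from values of 584, 529 and 507 on a short gene. A missing interval says that no peak passed the authors' threshold, not that no tags were there.

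The reverse case, an open start with no RNA, was met in 588 genes. By annotation 180 of these were tRNA genes, 161 microRNA genes, 89 lncRNA genes and 85 protein-coding genes. The RNA-seq kit selects polyadenylated mRNA, so tRNAs and mature microRNAs would not be counted whatever their level. Of all 383 tRNA genes, 71.3% had an interval in all 3 libraries, with a median pileup of 105, as high as that of expressed mRNA genes. The 10 highest pileups of the 588 were at 3 microRNA genes, 4 tRNA genes and GP1BB, MTPN and LUZP6. GP1BB and the microRNA gene MIR301B lie between 19 and 22 Mb of chromosome 22, where the median pileup at starts was 382. MTPN and LUZP6 have the same exons in the tables, with pileups of 309, 308 and 307, and reads that fall on more than 1 gene are not counted to either by default. GP1BB, the platelet glycoprotein Ib beta chain, had 299, 377 and 341, and 100% of its exon bases are shared with another gene. A value of 0 for these 3 is therefore not shown to be an absence of RNA.

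A start of an expressed gene lay within 1 kb in 139 of the 588. With one, 70.6% of genes at 0 had an interval in all libraries, and without one 6.50%. Protein-coding genes at 0 with no such neighbor were open in 2.95% of 2336 cases, with a median pileup of 43.7. Among those with under 50% of their exon bases shared, the highest pileups were at CTNNA3, an alpha-catenin of the heart, with 191, 162 and 178. This gene was chosen after its values were seen. It stood in contrast to the class as a whole, whose starts were closed as a rule in these cells.

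The CpG content of the promoter went with the presence of an interval. A RefSeq promoter of 300 bases, from 250 before to 50 after the start, lay within 1 kb of the start used for 16507 genes, 58.4% of those placed. The median CpG count was 27 for expressed genes with an interval in all libraries, 11 for expressed genes with none, 12 for genes at 0 with an interval and 4 for genes at 0 with none. Among expressed genes the share with an interval was 29.0% for 0 to 4 CpG, 45.6% for 5 to 9, 80.0% for 10 to 19, 91.6% for 20 to 29 and 87.3% for 30 and over. Among genes at 0 it was 2.11% for 0 to 4 and only 10.4% for 30 and over. Where an interval was present, its height did not follow the count in 1 direction. The median pileup of expressed genes was 63.8 for 0 to 4 CpG, 73 for 5 to 9, 96.5 for 10 to 19, 110 for 20 to 29 and 94 for 30 and over, and the Spearman correlation was −0.03 over 8354 genes. The correlation of level with pileup lay between 0.25 and 0.34 in each of the 5 CpG classes.

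**Figure D5:**
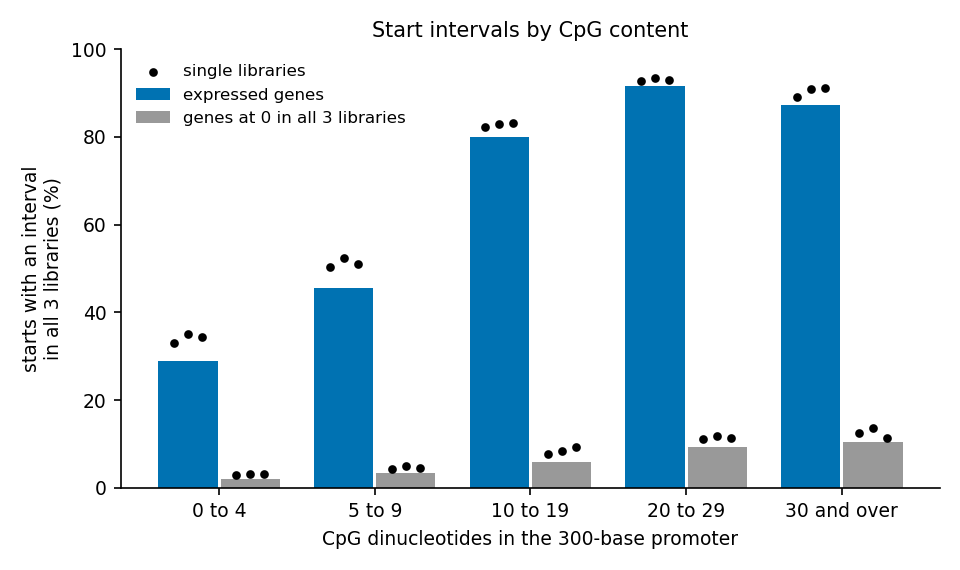
Percentage of starts with an interval in all 3 V-K562 libraries (bars) and in single libraries (black points) by the number of CpG dinucleotides in the 300-base RefSeq promoter. The bars of expressed genes run from 29.0% at 0 to 4 CpG to 91.6% at 20 to 29, and those of genes at 0 stay at or under 10.4%.

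Among the motifs, CCGGAAG was in 22.9% of promoters of expressed genes with an interval, 4.79% of those of expressed genes with none and 13.9% of all matched promoters. It was in 27.6% of promoters in the highest decile of level and 34.8% of the 66 ribosomal protein promoters, of which RPS18 above is an example with 2 copies. GGGCGG, a G-rich box that overlaps the CpG count, was in 74.2%, 46.0% and 56.6% of the 3 sets. In percentage points CCAAT differed most between tall and low intervals, at 59.5% in the highest 10% of expressed starts by pileup and 27.9% in the lowest 10%, against 36.4% of all. AGATAA was at 2.59% and 7.43% in these 2 sets. AGATAA and TGATAA, forms of the GATA motif, were less frequent at expressed starts with an interval, at 4.66% and 2.87%, than at those with none, at 9.80% and 7.18%, and over all promoters they were in 8.03% and 5.68%. TATAAA was in 4.80% and 12.3% of these sets and in 9.73% of all, CACGTG in 10.6%, 6.58% and 8.57%, and GCGCATGC in 6.64%, 1.94% and 4.27%.

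The tallest intervals were clustered in the genome. Of the 10 highest mean pileups at starts, 8 were on chromosome 22. CCDC116, a coiled-coil protein gene with a level of only 7.72 ± 0.157, was first with 1037, 981 and 1078. SDF2L1, of an endoplasmic reticulum chaperone complex, had 927, 908 and 948 at a level of 407 ± 9.91. NUP214 on chromosome 9, a nuclear pore protein gene, had 816, 880 and 929 at 109 ± 4.13, and ZNF595, a zinc finger gene near the end of chromosome 4, had 922, 750 and 833. PRAME and a neighboring gene of low level shared 1 interval with 633, 704 and 671, although their levels were 1196 and 1.32. ATAC-seq tags do not tell to which of the 2 genes such an interval belongs.

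In bins of 1 Mb with at least 5 open starts, the highest medians in the genome were 429, 339 and 310, all between 19 and 22 Mb of chromosome 22. The 52 starts with an interval in all libraries there had a median pileup of 382, against 73.3 on the rest of the chromosome and 92.3 on the other chromosomes. The single libraries gave 372, 369 and 391. The intervals of this stretch that lay away from any start were also taller, with a median of 85 against 35 elsewhere. The median level of its 52 expressed genes was 52.0, against 11.8 on the rest of chromosome 22 and 12.9 elsewhere. Of the 100 highest pileups in the cell line, 26 lay in it. The stretch ends short of BCR, whose own start had the pileups given above. DNA copy number, by which tags and RNA both scale, was not measured in these data. Leaving the stretch out changed the correlation of pileup with level by less than its spread between libraries, and the value remained 0.27. On the X chromosome, by contrast, 60.3% of expressed genes had an interval in all libraries and the median pileup was 65.7, while the autosomes ranged from 70.3% to 78.1% in share and from 64 to 116 in median pileup, with only chromosome 13 below the X in pileup.

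Set against the other lines, the V-K562 libraries had more intervals in all and a smaller share of them near genes. Within 1 kb of a gene start lay 22.8% ± 0.0399 of V-K562 intervals (SD, n = 3), 26.2% ± 0.468 in B-K562 and 26.4% ± 0.769 in G-K562. All V-K562 libraries were below all others, with 22.8% in each against 25.6% to 27.1%, and had 53862 to 55570 intervals against 47111 to 51199. The number of intervals near a start was 12300 to 12679 in V-K562, which spans the 12517 to 12557 of B-K562, and 13106 to 13164 in G-K562. The exact permutation test gave p = 0.1 for either line, the smallest that 3 against 3 allows, and a Benjamini-Hochberg value of 0.15 over 6 tests. The share with a start interval was taken over the genes expressed in V-K562 for every line. It was 77.4% ± 0.816 in V-K562, 78.0% ± 0.239 in B-K562 and 79.1% ± 0.310 in G-K562, with exact permutation p = 0.4 and 0.1. The correlation of pileup with each line's own level was 0.287 ± 0.00342, 0.295 ± 0.00613 and 0.300 ± 0.00317, with exact permutation p = 0.2 and 0.1. The V-K562 libraries enter both comparisons. No difference passed 0.05 in a design that cannot reach it, and the libraries of G-K562 lay above those of V-K562 in all 3 measures.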

How the data were processed

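RNA-seq and ATAC-seq were each performed on 3 V-K562, 3 B-K562 and 3 G-K562 cultures. Per the paper's methods, RNA from a stranded mRNA kit was mapped to GRCh38 with STAR, duplicates were removed, unique reads were kept and Subread counted them on RefSeq genes. The expression score deposited by the authors is a count that was scaled by the library's DESeq2 size factor, then rounded, so that it is not a raw count and no count test was run. ATAC-seq tags were mapped with BWA-MEM, sampled to the same number per library, and peaks were called per library with MACS2. The deposited signal is the tag pileup at an interval's summit, or its mean over the interval. A library with no interval has no value rather than 0. Depth in reads is unknown, and the precision rests on the 3 libraries. The tables also hold the authors' comparisons (pooled means, log2 fold changes, standard errors, p-values and adjusted p-values), which were not used.

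Levels, windows, classes and correlations were computed with Python 3.11.15, numpy 2.4.6, pandas 2.3.3 and scipy 1.17.1, and the scripts were tested on simulated data. A start is the outermost exon end in the deposited gene models. RefSeq starts and promoter sequences on GRCh38 were matched by gene ID for 18282 of 28257 genes. Exact two-sided permutation tests over libraries compared the lines. Named genes were the 20 highest levels, members of the lists described, the 10 highest levels with no interval, the 10 highest pileups among genes at 0 and among all genes, and the 5 most variable genes. The members and lists were chosen with earlier results of these data known. Alternatives changed the window, the filter, the start, the scale, the genes used and the replicates. Some members of the lists enter the counts but are not reported here by name.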

Additional observations from a re-analysis of the deposited data

How the results depend on the processing

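Compared with 74.4% of expressed genes having an interval in all 3 V-K562 libraries, 8.28% of genes at 0 and a correlation of 0.27 between pileup and level, the values were 70.6%, 6.60% and 0.263 with a window of 500 bp and 78.0%, 11.0% and 0.277 with 2 kb. They were 68.5%, 5.51% and 0.322 without starts within 1 kb of another. For the 2 shares alone they were 72.7% and 7.55% when the summit had to lie in the window, and the share of genes at 0 was 8.73% on autosomes. With a mean value of at least 1 in place of 10 in each library, the share of expressed genes was 62.0% and the correlation 0.286, and with at least 100 they were 83.2% and 0.234. Without a filter the correlation was 0.293. Leaving out each replicate number in turn from both assays gave 74.6% to 75.6%, 9.03% to 9.21% and 0.276 to 0.277. The correlation was 0.276 with the mean pileup of the interval, 0.246 with values not divided by length and 0.282 at RefSeq starts. It was 0.663 with genes lacking an interval in at least 1 library ranked lowest. Protein-coding genes alone, an alternative added after seeing the data, gave 76.8%, 3.60% and 0.281. The other table's V-K562 values, the sum of summits and, also added later, leaving out 19 to 22 Mb of chromosome 22 moved the values they apply to by less than the SD between libraries. No value changed its sign. The filter alternatives do not apply to genes at 0. The cause of these shifts was not tested, other than that fewer or other genes enter.

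Whether replicate numbers pair the ATAC-seq samples was not resolved. The correlations of same-numbered libraries' deviations were low, from 0.0123 to 0.169, and were not all over 0.1. In G-K562 each same-numbered correlation exceeded the highest between unlike numbers, at 0.0996, 0.0671 and 0.0322 against −0.0402, 0.0126 and 0.00792. Replicate 1 of B-K562 did so too, at 0.169 against −0.0769. Replicates 2 and 3 of B-K562 did not, at 0.0123 and 0.0481 against 0.0329 and 0.105. With the numbers as a replicate block, the differences from V-K562 were, for B-K562 and G-K562, 0.00749 and 0.0130 in the correlation, 0.567 and 1.65 percentage points in the share of expressed genes and 3.40 and 3.56 percentage points in the share of intervals near a start, each with an exact sign-flip permutation p = 0.25, the smallest that 3 pairs allow. No comparison between lines changed its direction or its side of 0.05 under the other windows or without a replicate, and in designs of this size no p can fall below 0.05. Depth in reads is unknown, a low pileup near the peak caller's limit may be listed in some libraries only, and replicates are cultures of 1 line each.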
